A study of Drosophila melanogaster with 9 samples.

Results

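The nuclear genes that code for the subunits of the respiratory chain and of ATP synthase were examined in Drosophila melanogaster larvae reared at 3 densities. Members were taken by gene symbol: all symbols beginning with ND-, UQCR-, ATPsyn or COX and a digit, together with Cyt-c1, RFeSP, Cyt-c-p, SdhA, SdhB, SdhC, SdhD, levy, cype, ox, blw and sun, without genes of the mitochondrial chromosome. This gave 86 of the 17759 genes in the deposited table. Of these, 16 carry symbols ending in L, or in L and a digit, which name copies of the subunit genes known from the testis; they are described apart from the other 70. A 17th symbol with this ending, ND-MNLL, is named after the first residues of its protein and was kept with the 70.

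The 9 libraries were each made from 10 pooled larvae, taken whole at the wandering stage after feeding on a sugar-yeast diet. The low, medium and high densities are given in the design as 5, 60 and 300 eggs per ml, although first-instar larvae were the ones counted out and allotted at random. There were 3 pools per density. The labels give no strain, genotype, age or sex, and whole larvae mix many tissues. Nothing in the labels says that the pools of a density came from separate cultures, so the p-values measure the spread between these pools.

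The respiratory chain lies in the inner mitochondrial membrane. Complex I oxidises NADH, complex II oxidises succinate as a step of the citric acid cycle, complex III passes the electrons on to cytochrome c, and complex IV hands them to oxygen. Complexes I, III and IV move protons across the membrane, and ATP synthase, or complex V, makes ATP as they flow back. All subunits of complex II and most subunits of the others are made from nuclear genes, while a few core subunits of complexes I, III, IV and V are made from the mitochondrial genome. In Drosophila many nuclear subunit genes have a second copy used mainly in the male germ line.

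Library totals ranged from 16822606 to 25141308 counts, and levels are given as CPM, counts relative to library size, scaled with TMM factors. The share of the mitochondrial large ribosomal RNA ranged from 6.27% to 11.4%. Tissue markers differed between libraries: the summed level of 17 body wall muscle genes ranged 2.67-fold, from 7820 CPM in low replicate 1 to 20866 CPM in high replicate 1, and that of 10 fat body genes 2.29-fold, from 41724 CPM in high replicate 3 to 95357 CPM in medium replicate 1. Between high and low density edgeR called 4 of the 17 muscle genes as higher, with the largest change in TpnC47D. It called 2 of the 10 fat body genes, Fbp1 and Fbp2, as lower. Of all 12883 tested genes 15.2% were called in either direction, 4.18% as higher, and 1422 genes as lower. The fat body genes did not share a direction: 5 log2 fold changes lay above 0 and 5 below, from -0.91 to 1.12. Of the muscle genes 16 lay above 0 and 1 below. In the same comparison 5 of 12 midgut genes were called, 2 higher and 3 lower. Of 10 salivary gland genes 7 were called, 4 higher and 3 lower, with the largest change in ng1. Among the subunit genes, high replicate 3 was the lowest library more often than any other, so the counts below are also given without it and without high replicate 1. A gene was called when its adjusted p in edgeR's quasi-likelihood test was under 0.05, with Benjamini-Hochberg adjustment over all 12883 genes that passed the filter on low counts. Of the 70 members outside the testis copies 69 passed that filter, and all 16 copies did.

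Subunit genes were expressed well above the typical gene. Per kilobase of exon, the 69 tested members outside the copies had a median of 52.5 CPM, against 9.11 CPM for all tested genes. Complex I had a median of 39.1 CPM per kilobase over 33 genes, complex II 36.9 over 4 genes, complex III 50.8 over 9 and the cytochrome c gene Cyt-c-p 43.8. Complexes IV and V stood higher, with medians of 107 over 9 genes and 115 over 13 genes. The spread within a complex was wide. Per kilobase, ATPsynbeta, the catalytic subunit of ATP synthase (chromosome 4, bases 1031484 to 1034917, plus strand, dm6), reached 245 CPM, the highest level of all members, while ATPsyndelta, a part of the central stalk, was the lowest of complex V. ATPsynC, which forms the rotating ring in the membrane, followed with 241 CPM per kilobase. Among the genes counted with complex I the highest level was that of ND-MLRQ at 217 CPM per kilobase, and in complex III that of UQCR-14 at 148. Testis copies had a median of 10.0 CPM per kilobase.

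**Figure D1:**
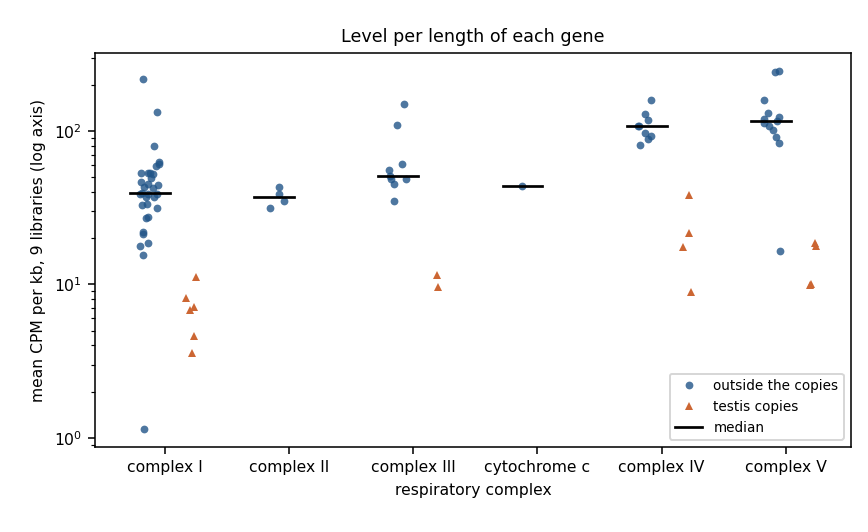
Mean level over the 9 libraries of each gene that passed the filter, in CPM per kilobase of exon on a log axis, by complex; circles are members outside the testis copies, triangles are testis copies and bars are the medians of the circles. The medians of complexes IV and V, 107 and 115, lie above those of complexes I, II and III, and the circle at the bottom of complex I is ND-B8 at 1.14.

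A pair of complex I genes stood apart in level. ND-MNLL (X, bases 7893053 to 7893798, minus strand) had 0 counts in all 9 libraries; all of its exon bases are also exon bases of CG45089 on the same strand, and CG45089 likewise had 0 counts. The counting command in the file header does not ask for reads that overlap more than 1 gene, so these zeros do not measure the transcript. ND-B8 (2L, bases 4454626 to 4455207, plus strand), the counterpart of human NDUFA2, averaged 1.14 CPM per kilobase, where the next-lowest member had 15.6. Its counts were 6, 12 and 0 at low density, 3, 1 and 1 at medium density and 15, 12 and 70 at high density, so 1 library held most of them. ND-B8 passed the filter only through the high-density libraries, so its difference between densities is given by these counts alone, and the counts of genes below leave it aside unless it is named.

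In TMM-scaled CPM the level of the subunit genes varied little across the 9 libraries. Their summed level was 4998, 5252 and 5158 CPM at low density, 5642, 4989 and 5507 at medium density and 5695, 5206 and 4636 at high density. These correspond to 5136 ± 129, 5379 ± 345 and 5179 ± 530 CPM (SD, n = 3 each). In these TMM-scaled values the ranges of the 3 groups overlapped, and the highest library exceeded the lowest by 1.23-fold. As a share of library counts, without TMM factors, the subunit genes made up 0.489, 0.530 and 0.505% at low density. The shares were 0.511, 0.472 and 0.503% at medium density and 0.582, 0.595 and 0.522% at high density. Every high-density share lay above every medium-density share, while the low-density range overlapped both. Gene by gene, the ratio of the highest to the lowest library had a median of 1.31 over the members outside the copies, against 1.82 over all tested genes. Both medians leave out genes with a library at 0, ND-B8 among them. The ratio was under 1.5 for 66 of 69 members (95.7%), and for 34.7% of all tested genes. These shares count genes with a library at 0 as not under 1.5. The exceptions were ND-B8, which has a library at 0, SdhB, and ND-MWFE with a ratio of 1.78. The members also had the higher median level, 52.5 against 9.11 CPM per kilobase. These ratios were not compared with those of genes of like level, so the part of level in them was not tested.

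Replicate spread was below that of all genes in each group, in a comparison that was likewise not matched on level. The median within-group SD on the log2 scale was 0.068 at low, 0.105 at medium and 0.155 at high density, against 0.131, 0.152 and 0.228 for all tested genes. Within the high-density group the libraries kept an order common to most members. Leaving ND-B8 aside, high replicate 3 was the lowest of the 9 libraries for 43 of 68 members, and high replicate 1 was the highest for 23. In high replicate 1 56 of the 68 members lay above their low-density mean, and in high replicate 3 8 did. The 2 libraries also held the highest and the lowest muscle and fat body levels of their group, at 20866 and 8907 CPM for muscle and 65817 and 41724 CPM for fat body; the part of these tissues in the order of the subunit genes was not tested.

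**Figure D2:**
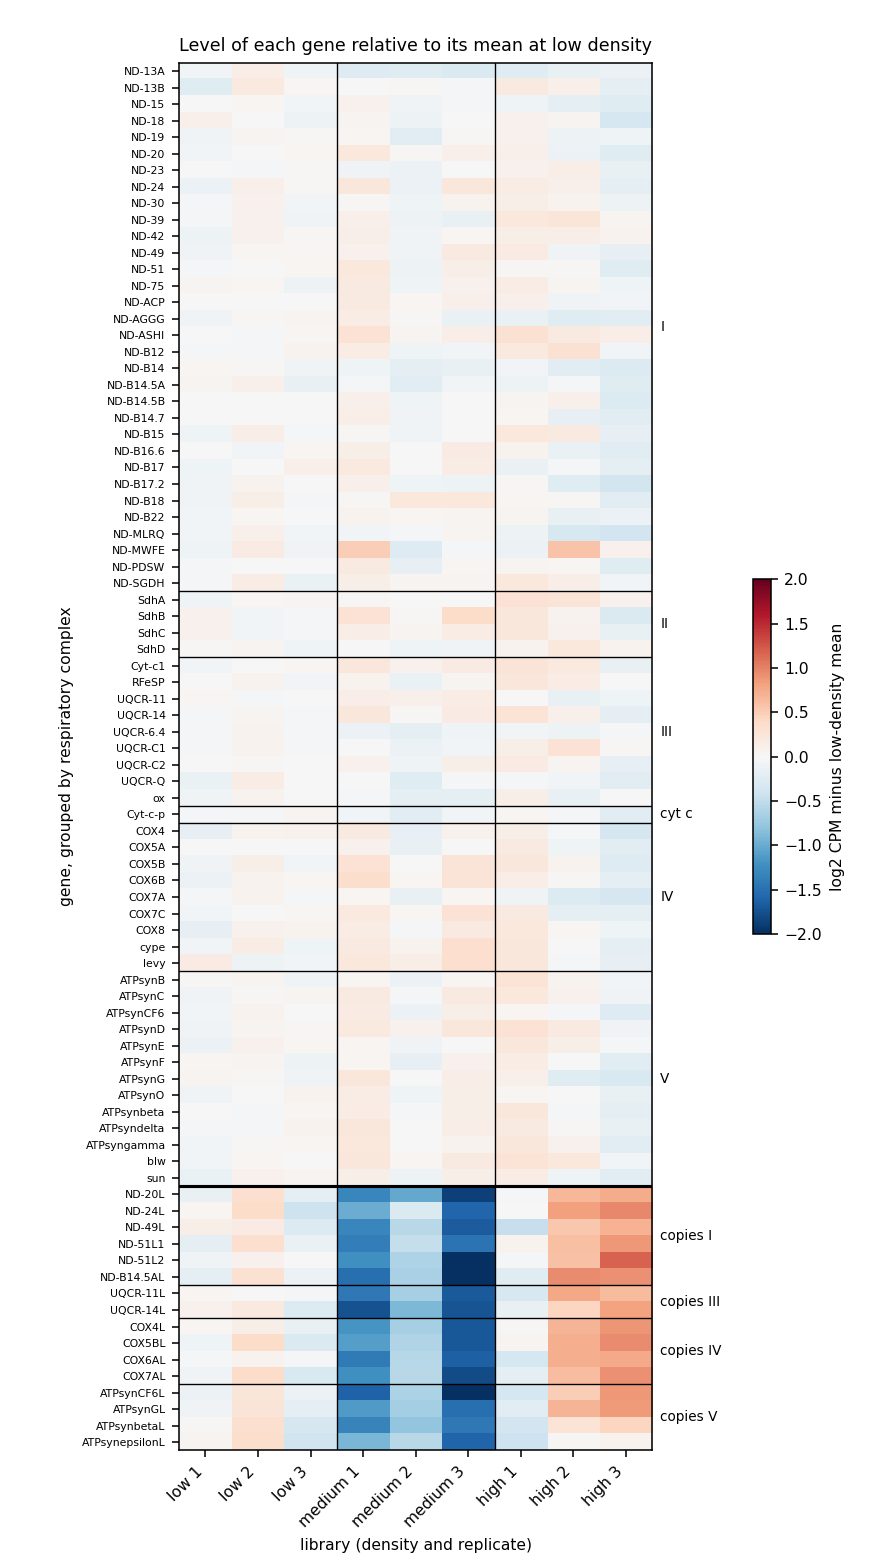
Log2 CPM of each gene in each library minus its mean at low density, with genes in rows by complex and libraries in columns; the colour scale ends at 2 in each direction, and ND-B8 is left out for its low counts. The rows of complexes I to V are pale in all 9 libraries and lowest in high replicate 3, while the 16 rows of testis copies are blue in the 3 medium-density libraries and above 0 in high replicates 2 and 3, where ATPsynepsilonL stays near 0 and pale.

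Comparing the extremes of crowding, high against low density, edgeR called none of the 68 members outside the copies, while it called 15.2% of all tested genes and 4.18% as higher. Of the members, 6 had an unadjusted p under 0.05, as had 30.1% of all tested genes, and DESeq2 called 2, SdhA as higher and ND-MLRQ as lower. The median log2 fold change was -0.01, beside 0.06 over all tested genes. Of the 68 members 33 had a fold change above 0 and 35 below. Under TMM scaling the data set limits on a change. For 67 of 68 members the 95% interval of the fold change lay within 0.5 on the log2 scale in both directions, or 1.41-fold. The exception was ND-MWFE. Of all tested genes 35.2% had such an interval. The intervals, here and below, take the TMM factors as given and hold no uncertainty of the scaling. Those factors averaged 0.990 at low, 0.922 at medium and 1.10 at high density. The shares of such intervals over all genes, here and below, were not matched on level. Leaving out high replicate 3 gave 1 call, SdhA, and leaving out high replicate 1 gave 2, ND-MLRQ and COX7A, both lower.

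Between medium and low density edgeR called 0 members, as it called 0.0% of all tested genes. Among the members 1, ND-13A, had an unadjusted p under 0.05, where 25.0% of all tested genes had, and DESeq2 called it as lower. Groups did not overlap for 6 members that were higher and 4 that were lower at medium density, beside 40.4% of all tested genes, 18.2% higher and 22.2% lower. ND-13A (2L, bases 5099177 to 5100288, minus strand), a subunit of the NADH-oxidising arm, stood at 32.1, 36.3 and 31.4 CPM at low density, 27.7, 28.2 and 27.1 at medium density and 28.2, 30.1 and 30.5 at high density. All low-density values lay above all others, and the log2 fold change between medium and low density was -0.27 (95% interval -0.45 to -0.08, edgeR adjusted p 0.13). The median fold change over the members was 0.04 on the log2 scale, beside 0.02 over all genes, and 66 of 68 intervals lay within 0.5, beside 43.3% of those of all genes.

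Between high and medium density 2 of 68 members were called, where 39.6% of all tested genes were, 21.3% higher and 18.3% lower. They were ND-MLRQ and UQCR-11, both lower. In all 9 members had an unadjusted p under 0.05, beside 49.3% of all tested genes. Groups did not overlap for 3 members that were higher and 5 that were lower at high density, beside 49.1% of all tested genes, 24.9% higher and 24.2% lower. The median log2 fold change was -0.05 over the members and 0.01 over all tested genes, and 65 of 68 intervals lay within 0.5, beside 31.9% of those of all genes. These calls depended on single libraries. The shares of all tested genes above are those of the main fit, and none is given for the alternative fits that follow. Without high replicate 1 there were 11 calls, all lower, and without high replicate 3 there were 3, SdhA, ND-39 and UQCR-C1, all higher. Counting ND-B8 the total was 3, and DESeq2 called 7, ND-B8 among them. With ND-B8 counted in the same way, leaving out medium replicate 1 gave 0 calls, and medium replicate 2 and medium replicate 3 gave 1 each. Leaving out high replicate 2 gave 1, which was ND-B8 itself, and each low replicate gave 2, of which 1 was ND-B8. The 11 calls without high replicate 1 leave ND-B8 aside. With library totals alone in place of TMM factors 27 members, ND-B8 included, were called, all higher, and the median of all tested genes then moved from 0.01 to 0.26; the median of the members without ND-B8 lay 0.05 below that of all genes under both scalings.

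**Figure D3:**
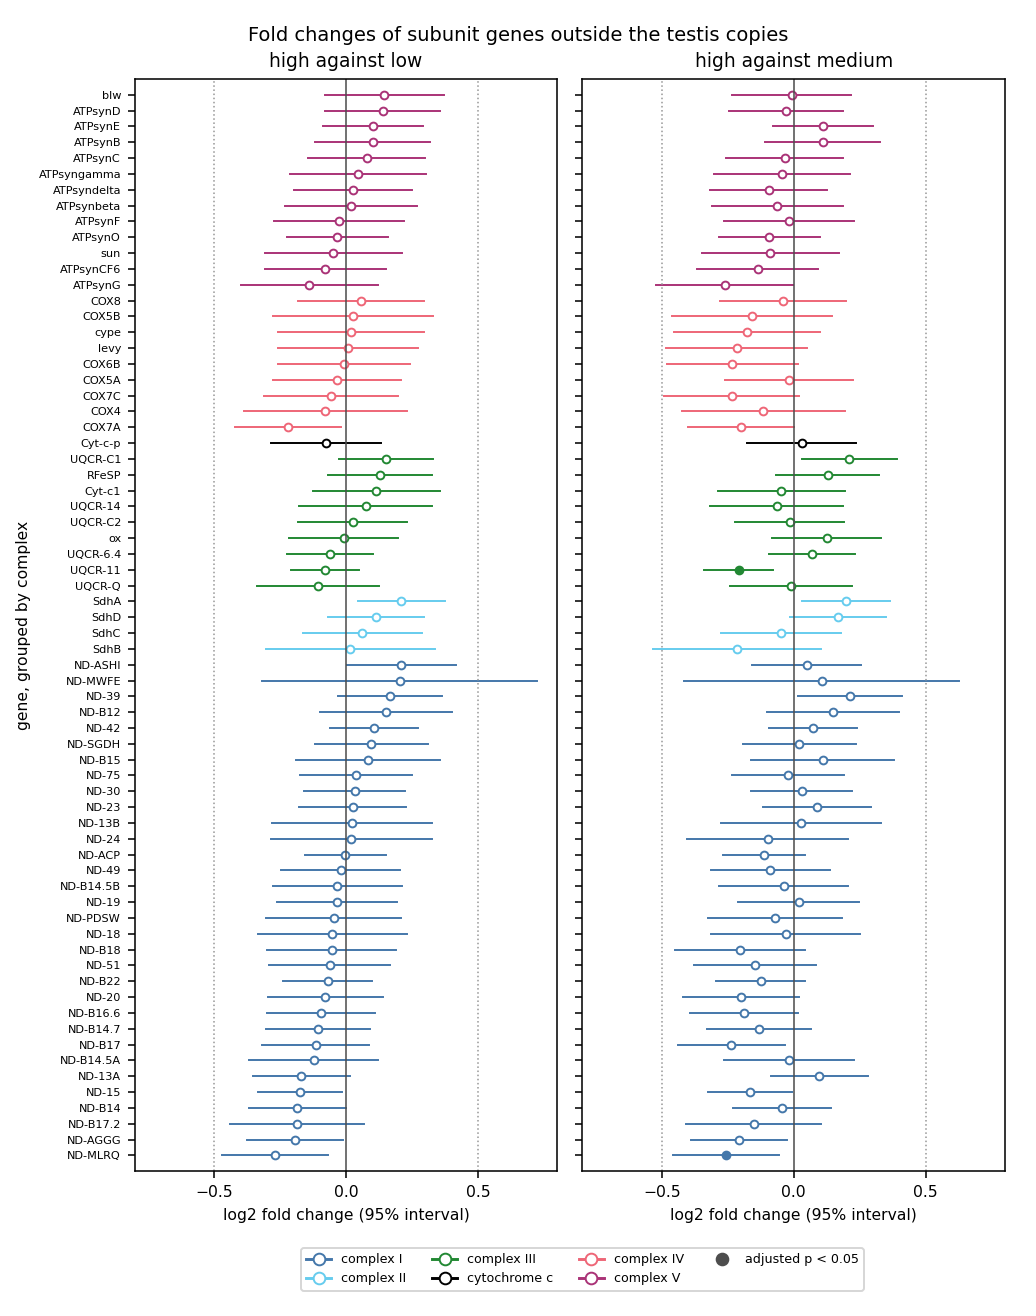
Log2 fold change of each member outside the testis copies with its 95% interval, for high against low density on the left and high against medium density on the right, grouped and coloured by complex; ND-B8 is left out, filled points are called and dotted lines mark 0.5 in each direction. Nearly all intervals lie between the dotted lines, and the filled points are ND-MLRQ and UQCR-11 on the right.

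Complex I has an arm that oxidises NADH, an arm that reduces ubiquinone and a membrane arm that pumps protons. Of its 33 tested genes, ND-B8 counted, none was called between high and low density, and the median log2 fold change was -0.03 with 13 genes above 0 and 20 below. The iron-sulphur subunit ND-75 of the NADH arm stood between 64.3 and 78.1 CPM in all 9 libraries, and ND-49 of the ubiquinone arm between 84.9 and 108 CPM. ND-MLRQ (3L, bases 23339326 to 23345936, plus strand) is the counterpart of mammalian NDUFA4, a protein first assigned to complex I and later found in complex IV. Its level was 119, 133 and 120 CPM at low density, 119, 121 and 129 at medium density and 115, 99.1 and 94.9 at high density. Every high-density value lay below every other value. The log2 fold change was -0.26 ± 0.09 (SE) against medium density (edgeR adjusted p 0.046) and -0.27 ± 0.09 against low density (adjusted p 0.075). The call against medium density was lost when any library other than high replicate 1 was left out, with fold changes from -0.28 to -0.20 and adjusted p values from 0.053 to 0.14, while without high replicate 1 it was -0.35 (adjusted p 0.009). It was lost in 16 of 19 alternatives, among them upper-quartile factors, with -0.16 (edgeR adjusted p 0.232), and library totals alone, with -0.01 (adjusted p 0.917). Reads of ND-MLRQ are counted in fractions in 2 libraries and 2.23% of its exon bases are shared with mir-4942.

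Other complex I genes with groups that did not overlap between high and low density were ND-15 and ND-AGGG of the membrane arm and ND-13A, all lower, and ND-ASHI, higher; none of them was called. ND-AGGG, the counterpart of NDUFB2, stood at 97.6, 104 and 107 CPM at low density and 93.5, 87.3 and 89.3 at high density. Its counts are fractions in all 9 libraries, so they are shared with near-identical sequence elsewhere. Over the 68 members, 3 were higher and 5 lower in this sense, where 13.4% of all tested genes were higher and 19.6% lower, 33.0% together.

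Complex II, succinate dehydrogenase, consists of 4 nuclear subunits. SdhA (2R, bases 19391863 to 19395971, minus strand), the flavoprotein that binds succinate, stood at 84.8, 92.8 and 94.0 CPM at low density, 92.2, 91.0 and 90.7 at medium density and 111, 108 and 95.8 at high density. All high-density values lay above all others. The log2 fold change was 0.21 ± 0.07 (SE) against low density (edgeR adjusted p 0.088) and 0.20 ± 0.07 against medium density (adjusted p 0.058). SdhA was not called in either comparison. Its call depended on the setting: against medium density it was called in 6 of 19 alternatives, with adjusted p values down to 0.0069 and log2 fold changes from 0.15 to 0.45 over the 19. Against low density it was called in 3 of 19, DESeq2, library totals alone and the fit without high replicate 3, with fold changes from 0.16 to 0.36 over the 19. Without high replicate 3 the edgeR adjusted p was 0.0214 against low and 0.0204 against medium density. SdhD, a membrane anchor, gave 0.11 against low density and 0.17 against medium density on the log2 scale. Its high-density values also lay above those of both other groups, but barely so for low density. Relative to the low-density mean, high replicate 3 stood at 0.063 and low replicate 2 at 0.061 on the log2 scale. The iron-sulphur subunit SdhB gave 0.02 against low and -0.22 against medium density, and the anchor SdhC 0.06 and -0.05. None of these was called.

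Complex III joins a catalytic core to small subunits. The core genes UQCR-C1, UQCR-C2, Cyt-c1 and RFeSP had log2 fold changes of 0.15, 0.03, 0.11 and 0.13 between high and low density, none of them called. UQCR-11 (3L, bases 25120709 to 25126171, plus strand), the counterpart of the hinge protein UQCRH, stood at 90.5, 86.2 and 88.9 CPM at low density, 96.8, 95.1 and 98.5 at medium density and 87.8, 80.1 and 83.4 at high density. The medium-density values lay above all others. The log2 fold change between high and medium density was -0.21 ± 0.06 (SE, edgeR adjusted p 0.021). This call was lost without medium replicate 1, medium replicate 3, high replicate 2 or high replicate 3, with adjusted p values of 0.063, 0.077, 0.063 and 0.055 and log2 fold changes of -0.21, -0.20, -0.18 and -0.20. The call was also lost with upper-quartile factors, with the male RNAs roX1 and roX2 as a covariate and without the mitochondrial chromosome. That made 7 of 20 alternatives. The sign reversed with library totals alone, to 0.04. UQCR-14, the most abundant gene of the complex per kilobase, stood between 65.3 and 89.1 CPM, and its groups overlapped in every comparison.

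Cyt-c-p (2L, bases 16719932 to 16722644, plus strand), the cytochrome c of the body cells, stood at 30.5, 30.5 and 32.4 CPM at low density, 29.9, 27.0 and 29.9 at medium density and 31.9, 30.3 and 26.5 at high density. The groups overlapped, and the log2 fold change between high and low density was -0.08 (95% interval -0.28 to 0.13). No comparison called it.

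The 9 nuclear genes of complex IV surround a core made from the mitochondrial genome. Between high and medium density all 9 fold changes were below 0, with a median of -0.18 on the log2 scale beside 0.01 over all tested genes, but none was called and no gene had groups that did not overlap. The signs depended on the scaling: with library totals alone all 9 fold changes were above 0 with a median of 0.07 and 1 gene called higher, while relative to the median of all genes that median was -0.19. The value leaned on both outer libraries of the high-density group: it was -0.28 with 3 genes called lower when high replicate 1 was left out, and -0.08 when high replicate 3 was. Between high and low density the median was -0.01. COX7A (3R, bases 8339944 to 8341043, minus strand), the most abundant gene of the complex per kilobase, stood at 114, 122 and 114 CPM at low density, 120, 106 and 119 at medium density and 112, 96.9 and 92.4 at high density. Its high-density values lay below all low-density values, with a log2 fold change of -0.22 (edgeR adjusted p 0.134).

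The 13 genes of ATP synthase included the most abundant transcripts of all members, and none was called in any comparison. ATPsynbeta stood at 566, 558 and 588 CPM at low density, 632, 557 and 622 at medium density and 667, 564 and 505 at high density. The groups overlapped, and the log2 fold change between high and low density was 0.02 (95% interval -0.23 to 0.27). The other genes of the soluble part, its catalytic head and central stalk, are blw, ATPsyngamma, ATPsyndelta and sun, with log2 fold changes between high and low density of 0.15, 0.05, 0.03 and -0.05. The 8 genes of the peripheral stalk and membrane part ranged from -0.14 for ATPsynG to 0.14 for ATPsynD.

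Ratios between the summed levels of complexes ranged over the 9 libraries from 1.08-fold, for complex III to complex I, to 1.25-fold, for complex IV to complex II. The ratio of the summed levels of complex V to those of complex I, without ND-B8, reached at most 1.70 and ranged 1.14-fold over the 9 libraries. That of complex III to complex I was 0.387, 0.385 and 0.385 at low density, 0.382, 0.385 and 0.393 at medium density and 0.406, 0.413 and 0.407 at high density. The ratio of complex IV to complex II was 3.40, 3.66 and 3.54 in the low-density libraries, 3.71, 3.41 and 3.71 in the medium-density and 3.31, 2.98 and 3.08 in the high-density libraries. The high-density values lay apart from those of both other groups in these 2 ratios, and also in complex II to complex I, where they were higher, and in complex V to complex IV, where they were higher. These ratios share complexes, so they are not independent of each other. They were examined after the levels were known and were not tested. The sums of complex I include ND-MLRQ and those of complex IV do not, though its mammalian counterpart was later found in complex IV.

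Lists of genes that work beside the respiratory chain are read against the 15.2% of all tested genes called between high and low density and the 39.6% called between high and medium density. Among 17 genes of the citric acid cycle and pyruvate dehydrogenase, 3 were called between high and low density, all lower, and 5 between high and medium density, 2 higher and 3 lower. The lower genes were in both comparisons the succinyl-CoA synthetase subunits Scsalpha1, ScsbetaA and ScsbetaG, whose enzyme makes the succinate that complex II oxidises. ScsbetaA, the most abundant gene of this list, stood at 322, 280 and 283 CPM at low density, 282, 296 and 281 at medium density and 215, 239 and 251 at high density. Its high-density values lay below all others, by 0.33 ± 0.09 (SE) on the log2 scale against low density (edgeR adjusted p 0.038). ScsbetaG fell by 0.51 ± 0.12 against low density (edgeR adjusted p 0.024). The largest rise of the list between high and medium density was that of mAcon2, an aconitase gene, at 1.52 ± 0.36 (SE, edgeR adjusted p 0.014), with 15.3, 21.9 and 9.39 CPM at medium density and 25.5, 48.0 and 60.5 CPM at high density. The 9 libraries stood in the same order for mAcon2 as for the summed testis markers described below, and its ratio to them ranged 1.14-fold where its level ranged 6.45-fold; the part of testis tissue in this rise was not tested.

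Of 18 tested assembly factors, against the same 15.2% and 39.6% of all tested genes, 1 was called between high and low density and 6 between high and medium density, 4 of them higher. OXA1L, an insertase of the inner membrane, had the largest change, from 17.5 ± 3.03 CPM at medium to 29.5 ± 6.35 CPM at high density (SD, n = 3 each; log2 fold change 0.75, edgeR adjusted p 0.014). OXA1L also kept the library order of the testis markers, with a 2.38-fold range of its level and a 2.37-fold range of its ratio to them. The most abundant, scu, a short-chain dehydrogenase counted in this list, was lower at high density in both comparisons, at 91.3 ± 10.9 CPM against 117 ± 4.22 at low and 131 ± 9.80 at medium density. Of 14 tested regulators, srl, the fly member of the PGC-1 coactivators that promote subunit gene expression, was called higher between high and low density, at 54.8 ± 4.59 against 42.2 ± 2.47 CPM (log2 fold change 0.38, edgeR adjusted p 0.024). Between high and medium density the mitochondrial RNA polymerase gene mtRNApol was called higher, with a log2 fold change of 0.43, and ewg, the most abundant regulator of the list and fly counterpart of NRF-1, lower, with -0.25.

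Of 13 tested carriers and porins the comparison of high with low density called Mpcp1 as higher and Bmcp and aralar1 as lower. High against medium density called 4 as higher and 2 as lower. These are 3 and 6 of 13, beside 15.2% and 39.6% of all tested genes. The most abundant carrier, sesB, exchanges ADP for ATP. It stood at 445, 452 and 495 CPM at low density, 546, 512 and 583 at medium density and 862, 649 and 519 at high density, a log2 fold change between high and low density of 0.54 ± 0.17 (SE, edgeR adjusted p 0.061) that was not called. Within the high-density group it followed the order of the muscle markers, with the most in high replicate 1, and the part of muscle in its level was not tested. The largest called changes were a rise of Mpcp1, a phosphate carrier, between high and low density by 1.45 ± 0.34, and a rise of Ucp4C, an uncoupling protein gene, between high and medium density by 1.91 ± 0.40 on the log2 scale. The level of Ucp4C ranged 9.82-fold over the libraries and its ratio to the testis markers 1.74-fold.

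Testis copies followed another course: they were lowest at medium density. Their summed level was 176, 212 and 154 CPM at low density, 72.9, 115 and 54.6 at medium density and 158, 267 and 308 at high density, or 181 ± 29.5, 80.7 ± 30.7 and 245 ± 77.6 CPM (SD, n = 3 each). All medium-density libraries lay below all others, while the low and high groups overlapped. The copies ranged 5.65-fold across libraries as a sum, where the other subunit genes ranged 1.23-fold. Gene by gene, the ratio of the highest to the lowest library had a median of 6.04 over the copies and was nowhere under 3.65. In whole larvae fewer cells of a type and less RNA per cell cannot be told apart.

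Between high and medium density edgeR called all 16 copies, each of them higher, where 21.3% of all tested genes were called higher. The log2 fold changes ran from 0.88 for ATPsynepsilonL to 2.07 for ND-B14.5AL with a median of 1.64, beside 0.01 over all tested genes, and adjusted p values from 0.005 to 0.049. The groups did not overlap in any of the 16, where this held in the same direction for 24.9% of all tested genes. Leaving out medium replicate 1 lowered the count of calls to 11 and leaving out high replicate 2 to 12, and without any other single library it was 15 or 16. The 21.3% of all tested genes belongs to the fit of all 9 libraries. Fitted with the mean of the RNAs roX1 and roX2, which are made in males, as a covariate, 3 remained called, COX4L, UQCR-14L and ND-20L, and the median fold change was 1.07.

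Between medium and low density all 16 fold changes were below 0, with a median of -1.14 on the log2 scale, beside 0.02 over all tested genes. The 16 unadjusted p values were under 0.05, the adjusted values lay between 0.13 and 0.189, and edgeR called none (0.0% of all tested genes as lower). DESeq2 called 14, and edgeR called 12 without medium replicate 2, while the 0.0% belongs to the main edgeR fit. In 15 of the 16 the medium-density values lay below all low-density values, where 22.2% of all tested genes did so; the exception was ND-24L. Between high and low density none was called by edgeR or DESeq2 and none had an unadjusted p under 0.05, with 15 of 16 fold changes above 0, a median of 0.49 and groups that overlapped in all 16.

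The symbol rule gave copies for 15 of the 70 other members and for complexes I, III, IV and V. The flavoprotein gene ND-51 had a pair, ND-51L1 and ND-51L2. Further copies with names outside the rule are described under the other observations. Of the copies given by the rule, COX4L (2R, bases 5353994 to 5354723, plus strand) was the most abundant. COX4L is the copy of the gene for the largest nuclear subunit of complex IV. It stood at 28.9, 30.6 and 25.4 CPM at low density, 12.4, 17.7 and 8.64 at medium density and 28.7, 45.2 and 52.1 at high density. The log2 fold change between high and medium density was 1.70 ± 0.29 (SE, edgeR adjusted p 0.006). ND-20L (3R, bases 29515717 to 29516527, plus strand), copy of an iron-sulphur subunit of the ubiquinone arm of complex I, had the lowest adjusted p, 0.005, with 6.13, 8.54 and 5.96 CPM at low density, 2.69, 3.31 and 1.80 at medium density and 6.63, 10.8 and 11.4 at high density. In ATPsynepsilonL, with the smallest fold change, the high-density values of 4.43, 6.04 and 6.25 CPM fell within the low-density range of 4.47 to 7.58 or just below it, and the call against medium density was lost in 12 of 20 alternative settings.

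The values of the copies by complex were not tested against each other. The log2 fold changes between high and medium density were 1.44 to 2.07 for the 6 copies of complex I, 1.65 for UQCR-11L and 1.85 for UQCR-14L of complex III, 1.61 to 1.70 for the 4 copies of complex IV and 0.88 to 1.79 for the 4 copies of complex V. ND-B14.5AL, the rarest by counts, averaged 3.61 ± 0.729 CPM at low, 1.31 ± 0.873 at medium and 5.58 ± 2.24 at high density (SD, n = 3 each).

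Set beside their counterparts per kilobase, the copies reached a median of 17.5% of the counterpart's level at low density, 7.44% at medium and 26.4% at high density. The order of the pairs was broad: at low density the copy stood at 5.03% of its counterpart for ATPsynbetaL and at 44.1% for COX4L, and at high density the range was 5.56% to 71.5%. In high replicate 3 COX4L reached 102% of COX4. Summed, the copies amounted to 0.991% of the counts of the other members in medium replicate 3 and to 6.65% in high replicate 3.

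**Figure D4:**
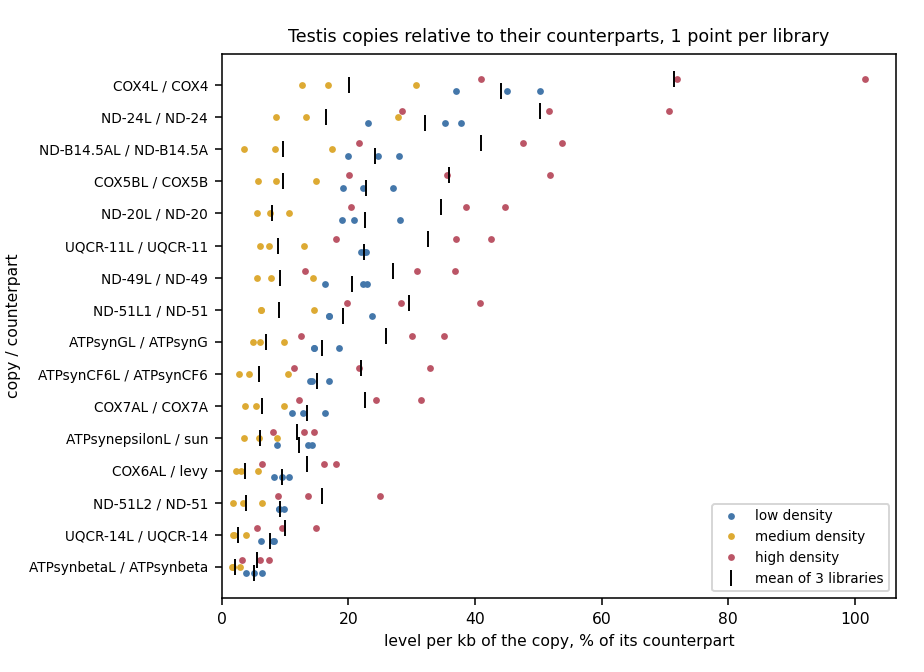
Level per kilobase of each testis copy as a percentage of the subunit gene it copies, with 1 point per library coloured by density and a bar for the mean of 3 libraries. In each row the medium-density mean is the lowest, and the mean for COX4L moves from 20.1% at medium to 71.5% at high density.

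The copies moved with the testis markers. A list of 30 genes known from the testis, none of them a member, had a summed level of 835, 1012 and 755 CPM at low density, 395, 578 and 269 at medium density and 725, 1246 and 1517 at high density. Its range over the libraries was 5.65-fold, as for the copies. All 30 genes were called higher between high and medium density, where 21.3% of all tested genes were. This list was chosen with earlier results of these data known, so its count is a description. The most abundant marker, betaTub85D, the tubulin of sperm tails, averaged 147 ± 17.6 CPM at low, 68.9 ± 26.0 at medium and 202 ± 73.6 at high density, and the largest change was that of ProtB, a protamine of sperm chromatin, from 10.5 ± 4.95 CPM at medium to 41.9 ± 16.9 CPM at high density (SD, n = 3 each). Divided by the marker sum, the copies stayed between 0.184 and 0.218 in all 9 libraries, a range of 1.18-fold. The male dosage compensation RNA roX1 stood at 754, 507 and 330 CPM at low density, 196, 402 and 131 at medium density and 346, 585 and 574 at high density. Divided by roX1, the copies ranged from 0.233 to 0.537, or 2.30-fold, with the lowest ratio in low replicate 1. Neither roX1 nor roX2 was called in any comparison. The part of male number and of testis size in these differences was not tested.

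**Figure D5:**
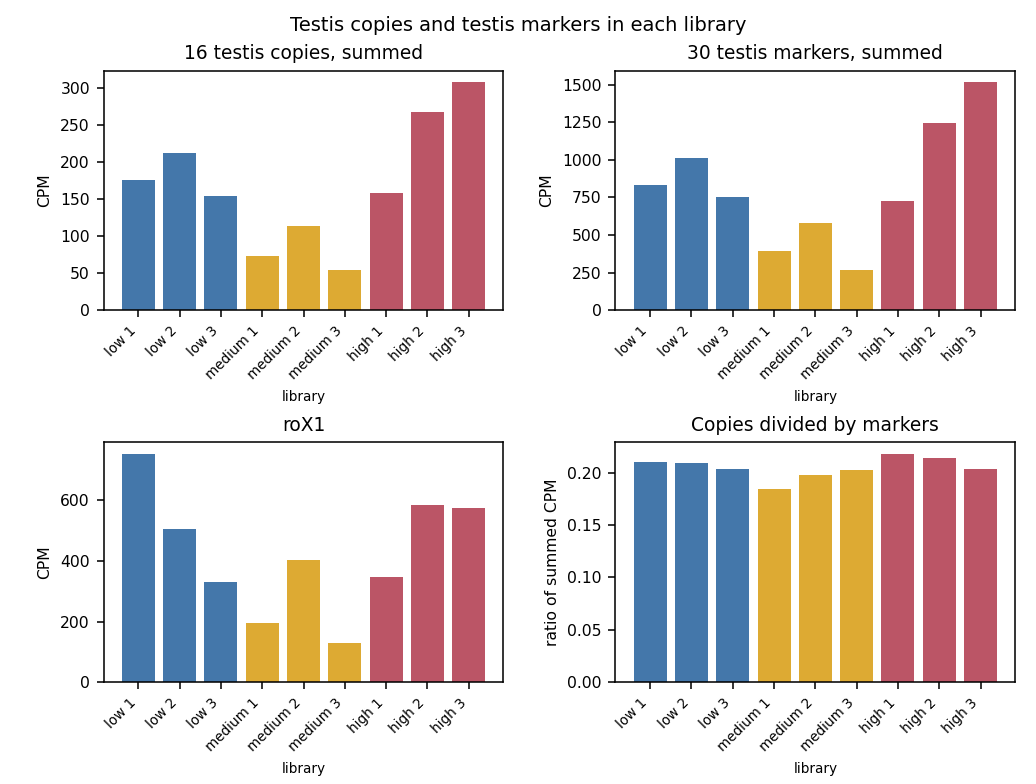
Summed CPM of the 16 testis copies, summed CPM of 30 testis markers, CPM of roX1 and the ratio of the first sum to the second, in each of the 9 libraries coloured by density, with bars starting at 0. The sums of copies and of markers share their shape, with the 3 medium-density libraries lowest; roX1 is highest in low replicate 1, and the ratio stays between 0.184 and 0.218.

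The copies also differed from the other members in exon structure, and their positions are given beside it. Neither was tested. In the deposited annotation 8 of the 16 copies consist of 1 exon block, against 2 of the 70 other members, and 14 of 16 have fewer blocks than their counterpart. UQCR-11, for instance, has 6 blocks and UQCR-11L has 1. None of the 16 copies lies on the X chromosome, which holds 13 of the 70 other members (18.6%) and 15.1% of all genes, and 5 of the 16 have a counterpart on X. SdhBL, a testis copy outside the symbol rule, does lie on X. On the chromosome arm of the counterpart lie 4 of 16, where 2L, 2R, 3L, 3R and X each hold from 15.1% to 23.7% of all genes. Among the 4 is COX5BL (2L, bases 6559431 to 6560133, plus strand), which starts 122 bases beyond the end of COX5B. None of the copies had fractional counts, while 17 of the other members had a fraction in at least 1 library, so no share of reads aligned to several places shows in the counts of the copies.

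The large ribosomal RNA of the mitochondrion, lrRNA, stood at 63996, 64934 and 87232 CPM at low density, 81449, 108114 and 110207 at medium density and 111072, 90799 and 89324 at high density. Its log2 fold change was 0.43 ± 0.22 (SE) between high and low density (edgeR adjusted p 0.231) and -0.04 ± 0.22 between high and medium density (adjusted p 0.898), and it was not called.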

How the data were processed

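RNA was sequenced from 9 pools of whole larvae with a stranded mRNA kit, per the labels' protocols. The deposited values are estimated counts per gene: the authors ran featureCounts by strand on exons, per the file headers, against RefSeq Release 6, with reads aligned to several places shared as fractions, and 5.06% of values are not whole. Per the submitters' processing notes, Trim Galore 0.6.4, HISAT2 2.1.0, SAMtools 1.9, featureCounts 1.6.2, DESeq2 1.26.0 and R 3.6.1 were used, with build dm6. Counts were rounded and fitted for all 9 libraries with edgeR 4.0.16 in R 4.3.3 (TMM factors, its default filter on low counts, quasi-likelihood test, Benjamini-Hochberg adjustment over all tested genes). The 3 densities gave 3 comparisons; an interval bound of 0.5 on the log2 scale was used. The alternatives were DESeq2 1.42.0, other scalings and filters, a replicate block, a roX covariate and each library left out, 20 in all. The procedure was tested on simulated data. Genes were named as the most abundant per kilobase of each complex, the largest called changes, all Sdh subunits, Cyt-c-p and the copies, and from other lists the most abundant and the most changed member; other genes were chosen after their values were seen. The members and lists were chosen with earlier results of these data known.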

Additional observations from a re-analysis of the deposited data

How the results depend on the processing

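Calls of the subunit genes outside the copies were few under most settings and varied with the scaling and with single libraries. Shares of all tested genes are given for the main fit alone, so the counts of the alternatives stand without them. Between high and low density, where 0 were called, DESeq2 called 2 and library totals alone 7, and leaving out 1 library gave 0 to 2. Between medium and low density, where 0 were called, DESeq2 called 1; the median log2 fold change turned to -0.063 with library totals alone and to -0.068 with the roX covariate. Between high and medium density, against 3 calls with ND-B8 counted, DESeq2 called 7, upper-quartile factors 5, RLE factors 5, library totals alone 27, the fit with a replicate block 1, the roX covariate 0 and the fit without the mitochondrial chromosome 1, and leaving out 1 library gave 0 to 12. These counts include ND-B8 wherever it was called, and the 1 call without the mitochondrial chromosome was ND-B8 itself. The median then was 0.20 with library totals alone, where UQCR-11 reversed to 0.041. For the testis copies, DESeq2 called 14 between medium and low density and leaving out 1 library gave 0 to 12, while 3 were called between high and medium density with the roX covariate. The causes were not tested, except that library totals move the median of all genes to 0.26. Same-numbered replicates correlated between -0.34 and 0.28, so the numbers were not taken as pairs. Depth limits ND-B8, with at most 70 counts in a library.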

Other observations

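Further testis copies of respiratory genes have names outside the symbol rule, and 9 of them were looked up after the values of the others were seen. Between high and medium density edgeR called 8 of the 9 as higher, beside 21.3% of all tested genes, with a median log2 fold change of 1.55 over the 9. Among them were SdhAL, at 1.55, and SdhBL, at 1.33, copies for complex II, for which the rule gave no copy; SdhBL lies on X. Cyt-c-d, the cytochrome c known from sperm development, rose by 1.57 on the log2 scale; it is also 1 of the 30 testis markers. Per kilobase it stood at 87.7% of Cyt-c-p at low, 40.8% at medium and 119% at high density. CG34172, a copy of COX7A, was not called, at 0.63 (edgeR adjusted p 0.235). CG7630, a counterpart of the complex IV subunit COX7B that the rule does not take, stood at 63.1, 69.8 and 61.4 CPM at low density, 69.5, 64.2 and 71.2 at medium density and 68.5, 56.7 and 51.9 at high density, and was not called (edgeR adjusted p 0.422 against low and 0.148 against medium density).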
